A study of Mus musculus with 120 samples.

Results

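A set of 35 genes of the skeletal muscle contractile apparatus were followed in plantar skin and dorsal root ganglia (DRG) of mice treated with paclitaxel or vehicle. They were taken by gene symbol, and all 35 were found among the 52276 named genes of each tissue and passed the filter on low counts in both. They comprised 9 genes of the thick filament, 8 of the thin filament, 10 of the Z-disc and scaffold, 4 of calcium handling and 4 of muscle metabolism. Across these roles, 13 were genes of fast fibres and 5 were genes of slow fibres. The mice were males of the strain given as C57B6/J, 6 weeks old when injected. Paclitaxel, a drug that stabilises microtubules, was injected intraperitoneally at 4 mg/kg on Days 0, 2, 4 and 6. Mice collected on Day 4 therefore did not receive the dose of Day 6. Vehicle mice received equal parts of Cremophor and ethanol diluted in saline. Left lumbar ganglia L3 to L5 and plantar skin of the left hind paw were collected from 4 mice per treatment on each of Days 4, 7, 11 and 23, which the study describes as pain onset, maximal pain, the beginning of resolution and recovery. Each tissue therefore had 32 libraries in 8 groups of 4. A number such as 52 in SKIN52 and DRG52 was taken to mark the same mouse, an inference from matching number, treatment and day.

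A skeletal muscle fibre contracts when calcium released through the ryanodine receptor binds troponin on the thin filament and lets myosin of the thick filament pull on actin. Fibres differ in the myosin heavy chain they use. Myh7 marks slow fibres, Myh2 fast oxidative fibres (type IIa), Myh1 fast fibres of type IIx and Myh4 the fastest, glycolytic fibres (type IIb), and troponins also come in slow (Tnni1, Tnnt1, Tnnc1) and fast (Tnni2, Tnnt3, Tnnc2) forms. Neither skin nor a ganglion is a muscle, although muscle lies directly beneath the plantar skin and beside the lumbar spine. In bulk RNA, fewer cells of a type and less RNA per cell cannot be told apart.

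The tissues matched their labels. The summed level of 8 keratinocyte markers ran from 54275 to 111530 CPM (counts scaled to library size) in skin and from 4.70 to 58.1 CPM in DRG. That of 8 sensory neuron markers ran from 3370 to 6991 CPM in DRG and from 2.35 to 11.0 CPM in skin. The library sizes behind CPM were adjusted by the trimmed mean of M-values (TMM), and total counts were 24114230 to 63872693 per skin library and 22146536 to 52904112 per DRG library. DRG09 and DRG34 stood apart by their mitochondrial share of counts, 1.80% and 1.77%, against 4.47% or more in the other DRG libraries. The deposited labels of the sequencing runs of DRG09 disagree, and it was placed by the run labelled paclitaxel, Day 4. The study's own sample list gives both runs as paclitaxel, Day 4.

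Muscle genes share a set of regulators, and the promoters of a few members described below are shown. They are the 250 bases before the start of the gene (RefSeq, GRCm38.p6), 5′ to 3′, of Acta1 (chr8:123894776-123895025, minus strand), Ckm (chr7:19410844-19411093, plus strand), Myh1 (chr11:67199852-67200101, plus strand) and Myh4 (chr11:67237562-67237811, plus strand). Capitals mark CANNTG (the E-box bound by factors such as MyoD), CArG boxes (bound by serum response factor) and MEF2 sites on either strand.
Acta1: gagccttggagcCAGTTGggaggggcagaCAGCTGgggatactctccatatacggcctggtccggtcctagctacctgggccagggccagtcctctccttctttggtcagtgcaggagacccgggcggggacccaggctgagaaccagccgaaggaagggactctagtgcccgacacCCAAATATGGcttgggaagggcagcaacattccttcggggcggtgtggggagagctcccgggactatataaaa
Ckm: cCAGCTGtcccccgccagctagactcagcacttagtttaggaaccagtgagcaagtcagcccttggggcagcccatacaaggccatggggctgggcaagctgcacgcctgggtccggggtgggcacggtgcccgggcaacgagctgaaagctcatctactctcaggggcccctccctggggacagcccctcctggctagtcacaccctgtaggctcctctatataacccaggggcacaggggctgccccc
Myh1: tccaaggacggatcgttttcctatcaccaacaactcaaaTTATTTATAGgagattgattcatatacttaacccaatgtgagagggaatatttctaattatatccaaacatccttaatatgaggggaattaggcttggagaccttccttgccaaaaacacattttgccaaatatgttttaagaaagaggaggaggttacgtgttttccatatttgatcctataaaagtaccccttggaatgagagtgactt
Myh4: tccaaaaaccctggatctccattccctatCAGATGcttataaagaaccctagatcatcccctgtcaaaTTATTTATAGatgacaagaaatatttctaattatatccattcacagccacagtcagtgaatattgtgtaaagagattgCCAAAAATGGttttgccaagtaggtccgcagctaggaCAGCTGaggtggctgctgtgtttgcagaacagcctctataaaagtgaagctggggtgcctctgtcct
The RefSeq table held a promoter for 27 of the 35 members. CANNTG occurred in 22 of these 27 (81.5%) and in 66.0% of all 27025 promoters in the table. A CArG box occurred in 3 (Acta1, Ldb3 and Myh4; 11.1%, against 1.40% of all promoters) and a MEF2 site in 4 (Myh1, Myh4, Ttn and Xirp2; 14.8%, against 3.01%). Motifs of different kinds overlapped in 0 places in the member promoters. Myh1 and Myh4 shared the 10 letters of their MEF2 site, while only the Myh4 window held E-boxes and a CArG box as well. Myh2, Myh1 and Myh4 lie next to each other on the plus strand of chromosome 11 (67171027 to 67197517, 67200052 to 67224575 and 67238029 to 67260446). These spans are from GENCODE, whose starts differ from those of RefSeq, so the Myh1 window runs into its GENCODE span. Reads the 3 genes could share through their similar sequence make the split between them less certain.

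Muscle genes took very different shares of the RNA from mouse to mouse. In skin the 35 genes held between 0.00926% (SKIN50) and 6.83% (SKIN52) of all counts, a 737-fold range within the same group of vehicle mice of Day 23. The median over 32 skin libraries was 0.522%, and 12 libraries were above 1%. In DRG the share ran from 0.00506% (DRG09) to 1.01% (DRG42), with a median of 0.00834%. Only 9 of 32 DRG libraries exceeded 0.03%, a limit chosen after the values were seen, and 6 of them came from paclitaxel mice and 3 from vehicle mice. In skin 29 of 32 libraries exceeded it. The share was higher in skin than in DRG of the same animal in 28 of 32 mice, by 42.9-fold in the median mouse.

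The shares in skin split the paclitaxel mice by day. On Day 4 the paclitaxel libraries held 1.95%, 2.48%, 3.86% and 4.21%, and the vehicle libraries 0.111%, 0.172%, 0.622% and 3.36%. On Day 7 the shares were 0.0825%, 0.139%, 0.195% and 0.454% with paclitaxel and 0.0525%, 0.0816%, 1.54% and 1.56% with vehicle. The paclitaxel mice were thus uniformly high on Day 4 and low on Day 7, while the vehicle mice were mixed on both days and overlapped them. On Day 11 the shares were 0.0113%, 0.143%, 0.162% and 0.534% with paclitaxel and 0.0287%, 0.394%, 0.511% and 0.851% with vehicle. On Day 23 they were 2.62%, 2.84%, 4.97% and 5.13% with paclitaxel and 0.00926%, 0.160%, 0.563% and 6.83% with vehicle. The paclitaxel mice of Day 23 were again all high, and the vehicle mice spanned the whole range seen in skin.

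**Figure D1:**
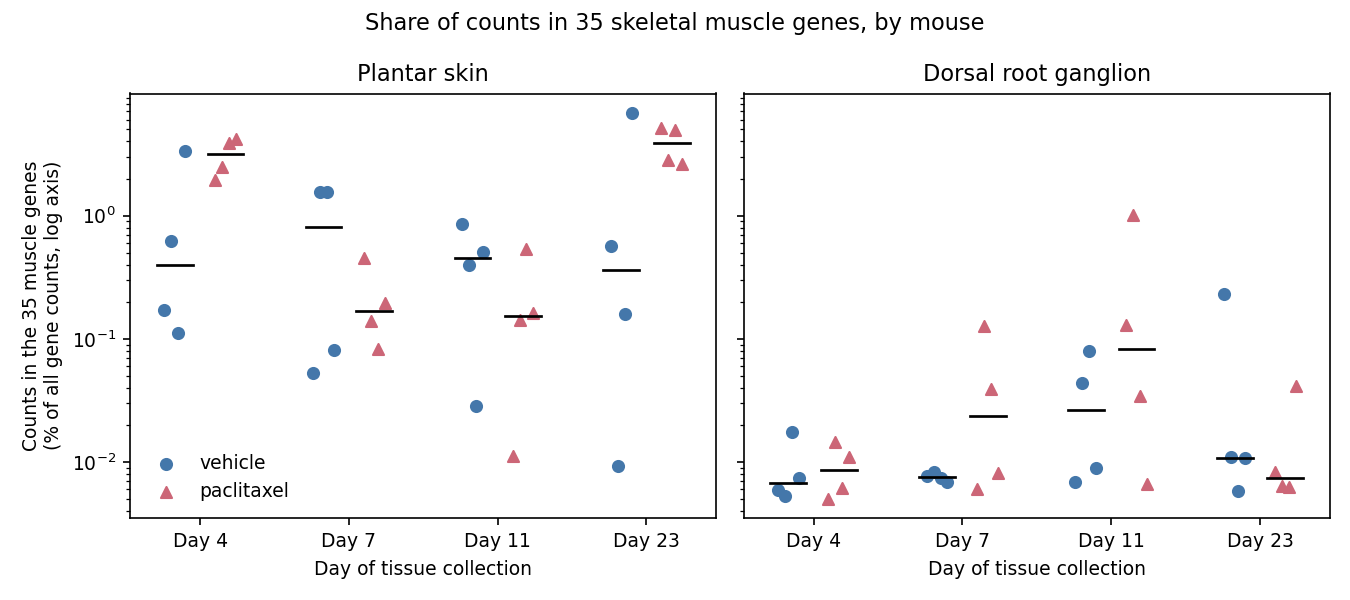
Counts in the 35 muscle genes as a percentage of all gene counts, on a log axis, for each mouse of each day in skin (left) and DRG (right); circles are vehicle, triangles paclitaxel and lines group medians (n = 4). In skin the paclitaxel mice of Days 4 and 23 lie between 1.95% and 5.13% and those of Days 7 and 11 between 0.0113% and 0.534%.

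Acta1, the actin of skeletal muscle thin filaments, had the highest level per length of the members in skin (median 418 CPM per kilobase of exon). On Day 4 it measured 2175, 3350, 4209 and 3645 CPM in the paclitaxel mice and 215, 725, 94.8 and 3534 CPM in the vehicle mice. On Day 7 it measured 654, 183, 93.0 and 223 CPM in the paclitaxel group, compared with 52.5, 1638, 1768 and 86.2 CPM in the vehicle group. SKIN08 on Day 4 lay within the paclitaxel range, and SKIN18 and SKIN19 on Day 7 lay above it. On Day 11 Acta1 measured 10.1, 130, 490 and 184 CPM in the paclitaxel group, compared with 776, 448, 29.1 and 692 CPM in the vehicle group. On Day 23 it measured 4970, 2916, 5997 and 3198 CPM in the paclitaxel group, compared with 630, 6.45, 188 and 8678 CPM in the vehicle group. The groups overlapped on each of the 4 days. The labels number the mice, so p-values below measure the spread between mice.

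Ckm, the muscle creatine kinase that buffers ATP, followed the same libraries. It ranged from 1098 to 1646 CPM on Day 4, 30.4 to 244 CPM on Day 7, 2.81 to 234 CPM on Day 11 and 1032 to 2216 CPM on Day 23 in paclitaxel mice. In vehicle mice the ranges were 60.7 to 1793, 19.5 to 660, 9.31 to 388 and 3.15 to 3724 CPM. In paclitaxel mice no Ckm value of Days 7 and 11 reached a value of Days 4 and 23, whereas the vehicle ranges of all days overlapped.

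Tested on each day, no member differed between paclitaxel and vehicle in skin by edgeR's quasi-likelihood test with Benjamini-Hochberg adjustment over 18578 genes. On Day 4, 0 of 35 were called (0 by DESeq2), where 0.0108% of all genes were called, and 0 were at an unadjusted p under 0.05, where 8.19% of all genes were. The median log2 fold change of the members was 1.42, with 35 of 35 above zero, beside 0.01 over all genes. On Day 7, 0 were called (0 by DESeq2; 0.00538% of all genes) and 0 were at an unadjusted p under 0.05 (6.15% of all genes), with a median of -1.82 and 0 of 35 above zero. Day 11 gave 0 calls (0 by DESeq2; 0.269% of all genes) and 1 member at an unadjusted p under 0.05 (9.14% of all genes), with a median of -1.13. Day 23 gave 0 calls (0 by DESeq2; 4.82% of all genes) and 0 members at an unadjusted p under 0.05 (21.3% of all genes), with a median of 0.93 and 35 of 35 above zero. The members thus moved together in the fit without passing the test, and in 0 of 35 members did the groups separate fully on any day, where 3.83%, 5.73%, 5.25% and 11.7% of all genes separated them on Days 4, 7, 11 and 23. The large medians came with large errors, as for Acta1, at 1.55 ± 1.31 (SE) on Day 4, -1.62 ± 1.31 on Day 7, -1.25 ± 1.3 on Day 11 and 0.85 ± 1.28 on Day 23.

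Single mice weighed on the skin medians. Without SKIN52 the median log2 fold change of the members on Day 23 was 3.88 and 16 of 35 were called, among 3007 of 18879 genes, whereas 0 were called with it. Without SKIN08 the median on Day 4 was 3.35, with 0 called and 25 of 35 at an unadjusted p under 0.05. The share of all genes in that fit is not given here. With all mice 0 of 35 members and 8.19% of all genes were at an unadjusted p under 0.05 on that day. The Day 11 median was -2.17 without SKIN43, -0.72 without SKIN41 and -0.63 without SKIN33, and the Day 23 median 0.48 without SKIN50, 0.52 without SKIN51. Averaged over the days, 0 members were called (0 unadjusted, 0 by DESeq2; 5.38% of all genes), and the median was -0.13, which turned to 0.30 without SKIN08 and 0.66 without SKIN52 and was -0.37 without SKIN43. A difference of the effect between days was called for 0 members (0 unadjusted, 0 by DESeq2), as for 0% of all genes, and for 2 members, among 585 genes, without SKIN52.

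**Figure D2:**
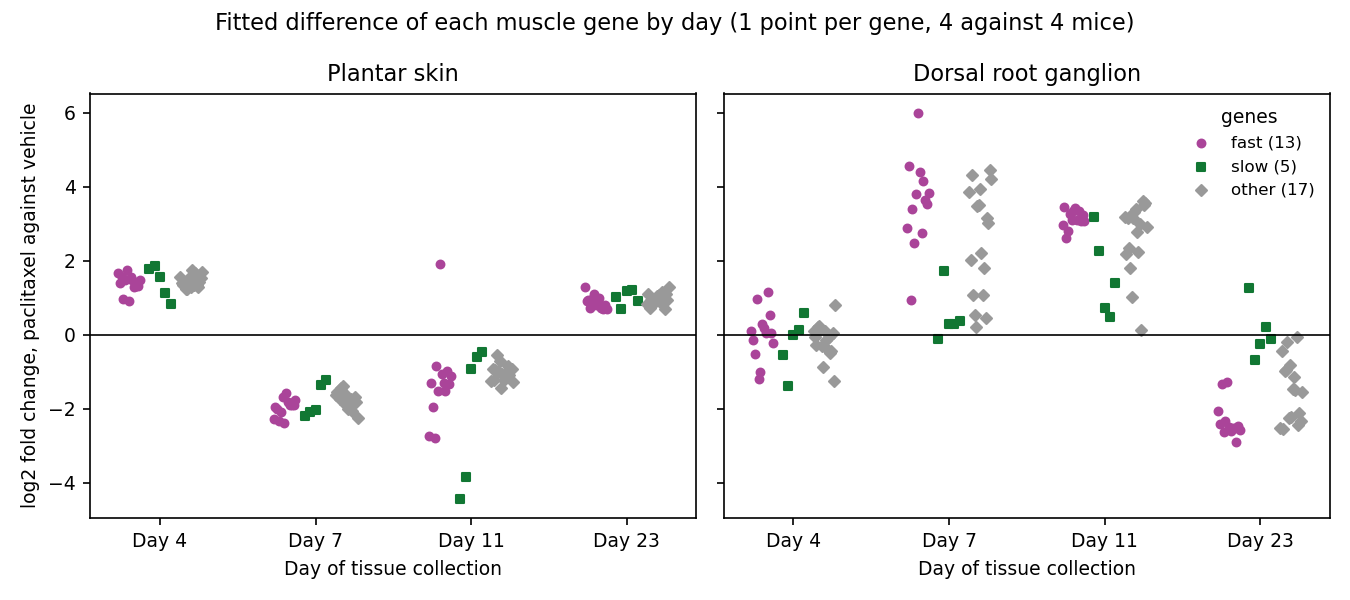
Fitted log2 fold change of paclitaxel against vehicle for each of the 35 genes on each day in skin (left) and DRG (right), with fast fibre genes as circles, slow fibre genes as squares and the others as diamonds. In skin the members lie together above zero on Days 4 and 23 (medians 1.42 and 0.93) and below it on Day 7 (median -1.82), and in DRG the slow genes lie nearer to zero than most fast genes on Day 7.

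The days themselves separated the paclitaxel mice. Across Days 4, 7, 11 and 23 of the paclitaxel mice, 30 of 35 members were called in skin, where 16.3% of all genes were called. At an unadjusted p under 0.05 were 35, where 31.8% of all genes were, and DESeq2 called 35, where it called 22.7% of all genes. Without the filter on low counts 34 were called, where 6.58% of all genes were. The adjusted p-values of these 30 ran from 0.0186 for Tnnc1, the slow troponin C, to 0.0480 for Mb, the oxygen store myoglobin. Myh1, Neb, Tnnt1, Trdn and Ttn were not called, with adjusted p of 0.0547, 0.0506, 0.0789, 0.0552 and 0.0535. For 34 of 35 members every paclitaxel library of Days 4 and 23 exceeded every paclitaxel library of Days 7 and 11, and the exception was Myh4; 6.3% of all genes tested separated these libraries in either direction. This grouping of days was chosen after the values were seen. In vehicle mice 0 of 35 were called across the days (0 by DESeq2; 0.877% of all genes) and 1, Myh4, was at an unadjusted p under 0.05 (16.8% of all genes). Without SKIN52 it was 1, among 111 genes called. The difference in course between paclitaxel and vehicle mice is the test of the effect between days given above, which called 0 members with all mice.

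The calls across days were near the threshold. Leaving out a paclitaxel mouse gave 6 calls without SKIN44, 8 without SKIN26, 9 without SKIN27, 10 without SKIN41, 12 without SKIN57, 13 without SKIN28 or SKIN59, 14 without SKIN11, SKIN12 or SKIN42, 19 without SKIN58 and 22 to 31 otherwise. Leaving out a vehicle mouse gave between 23 and 35. Over all genes the same fits called 2018 without SKIN44, 2286 without SKIN26, 2534 without SKIN27, 2634 without SKIN41 and 2143 without SKIN57, against 3037 with all mice, and 3908 without SKIN52. Whether the mice of a day were dissected in a single session, and whether cage coincides with group, is not given in the sources used here. An effect of the day of dissection can therefore not be told apart from one of the day after treatment. The mice of Day 4 were also collected before the dose of Day 6, and age at collection rose with the day. Effects of the number of doses and of age cannot be told apart from that of the day among paclitaxel mice.

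By role, the calls across days of the paclitaxel mice in skin took 8 of 9 genes of the thick filament, 6 of 8 of the thin filament, 9 of 10 of the Z-disc and scaffold, 3 of 4 of calcium handling and 4 of 4 of muscle metabolism. Of the fast fibre genes 12 of 13 were called and of the slow fibre genes 4 of 5. Other genes of the list of skeletal muscle genes that were no members behaved alike, with 27 of 32 called. When the mean level of those 32 genes was added to the model as a covariate, 0 members were called across the days (1 unadjusted). Of all 18578 genes 0 were called as well, against 3037 without the covariate. Those 32 genes followed the members closely (median r with the mean of the members 0.983). The loss of member calls was therefore largely fixed by the model and was not read as a result about the days. In that model Tnni2, the fast troponin I, was lower with paclitaxel over the days (log2 difference -0.20 ± 0.06 SE, edgeR adjusted p = 0.0382), the only member among 824 genes called, and Myh4 differed across days among vehicle mice (adjusted p = 0.0148), the only member among 285 genes called. Calls of 1 member in 35 are near or below these shares of the 18578 genes tested for the mean over days and in the vehicle mice.

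Some markers of other tissue layers were also called across the days of the paclitaxel mice, where 16.3% of all genes were. Among paclitaxel mice the summed level of the 8 keratinocyte markers ran from 58629 to 82552 CPM on Day 4, 99078 to 105560 on Day 7, 82452 to 111530 on Day 11 and 54275 to 80568 on Day 23, and 5 of 8 markers (Krt5, Krt14, Krt10, Lor and Sbsn) were called across the days. That of 8 smooth muscle markers ran from 1342 to 1633, 451 to 531, 406 to 702 and 756 to 1528 CPM on the same days, with 3 of 8 called. Fibroblast markers were called for 6 of 6 genes, tendon markers for 5 of 6, Schwann cell markers for 5 of 6 and bone and cartilage markers for 2 of 5. In the median paclitaxel library fibroblast markers summed to 4505, 4018, 1564 and 4178 CPM on Days 4, 7, 11 and 23. Tendon markers summed to 624, 504, 133 and 842 CPM, so both were lowest on Day 11. Schwann cell markers summed to 906, 343, 349 and 772 CPM. Adipocyte markers (2 of 8) and sensory neuron markers (1 of 6) were called at a share near that of all genes, and satellite glia markers for 0 of 4 (2 at an unadjusted p under 0.05). By group medians, keratinocyte markers were thus lower and smooth muscle markers higher in the paclitaxel mice of Days 4 and 23 than of Days 7 and 11, and their part in the result was not tested.

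Most members varied together across the skin libraries. Over 32 skin libraries, the log2(CPM + 1) of a member correlated with the mean of the other 34 at a median r of 0.992, and 29 of 35 were above 0.95. The lowest was Myh4 at 0.762, followed by Mybpc2, a fast myosin binding protein, at 0.930. These correlations describe libraries that share groups and depth and were not tested. All members varied over a wide range. Acta1 in the highest library was 1346-fold above the lowest, Ckm 1327-fold, Des (desmin, also used by smooth muscle) 301-fold and Eno3 (the muscle enolase) 123-fold, while Myh2 varied 3147-fold and Neb 7958-fold, so the members did not change in proportion.

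Genes outside the list with the most similar pattern over the skin libraries included Cmya5, Eef1a2, Cacna1s, Ank1, Hjv, Mypn, Klhl41, Hrc, Nrap, Smyd1, Pgam2, Sypl2, Lmod2 and Rpl3l, with r from 0.997 to 0.993 against the mean of the members. Cacna1s is the calcium channel of the transverse tubule, Nrap and Klhl41 take part in myofibril assembly, and Pgam2 is the phosphoglycerate mutase of muscle. Of 13220 genes compared, 153 had r above 0.95. The most opposite were Mbd2, Arpc3, Calml3, Zkscan6, Itm2b, F11r, Smap1, S100a14, Dstn and Tnks1bp1, with r from -0.841 to -0.782, and Calml3 and S100a14 are genes of stratified epithelium. Levels within 1 library sum to a fixed total, which these correlations share.

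Genes known from developing or regenerating muscle were at low levels, and their summed level in paclitaxel mice differed between days. Their 8 levels summed, in the median paclitaxel library, to 25.1 CPM on Day 4, 4.02 CPM on Day 7, 3.83 CPM on Day 11 and 39.5 CPM on Day 23. Myh3, the embryonic heavy chain, reached 30.3 CPM and Myog, a myogenic factor, 3.71 CPM in the highest skin library. Of 8 such genes 2 (Myh3 and Myod1) were called across the days of the paclitaxel mice, where 16.3% of all genes were. The r with the mean of the members was 0.916 for Myod1, 0.877 for Myh8 and 0.838 for Myh3. Of the genes that respond to denervation and atrophy 6 of 7 tested were called, among them Chrna1 and Musk of the neuromuscular junction, Trim63 and Fbxo32, with r of 0.988 for Chrna1 and 0.844 for Fbxo32. Among the heart genes, Nppa was at 0 counts in all 32 skin libraries, Tnnt2 lay between 12.5 and 27.8 CPM and Myh6, which is close to Myh7 in sequence, between 0 and 5.91 CPM. Of 7 heart genes tested 1 (Ryr2) was called, which is near the share of all genes.

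The muscle in skin was mainly of types IIx and IIa. Counts of the 4 heavy chains were split, in the median skin library, into 64.5% Myh1, 27.8% Myh2, 0.421% Myh4 and 2.06% Myh7. Myh1 led in 30 of 32 libraries. The exceptions were SKIN05, with 60.1% Myh2, and SKIN07, with 58.8% Myh4, both vehicle mice of Day 4.

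Myh4 was not spread evenly over the mice. It measured 404, 84.1, 304 and 1424 CPM in paclitaxel mice and 0.0534, 1.00, 140 and 1029 CPM in vehicle mice on Day 4. In the other groups it reached 292 CPM with paclitaxel on Day 23, 256 CPM in SKIN52 and at most 44.2 CPM elsewhere. Vehicle mice of Day 4 thus differed from each other far more in Myh4 than in Acta1, with SKIN05 the lowest and SKIN08 the highest. SKIN44, with a muscle share of 0.162%, had 13.3% of its heavy chain counts in Myh4, and SKIN60, with 2.62%, had 0.297%.

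Myh7, the slow heavy chain, followed the amount of muscle more closely. In paclitaxel mice it measured 103, 175, 271 and 247 CPM on Day 4 and 634, 193, 554 and 345 CPM on Day 23, against 32.3, 5.16, 0.805 and 1.61 CPM on Day 7 and 0, 1.34, 0.288 and 2.33 CPM on Day 11. In vehicle mice it ranged from 1.96 to 200 CPM on Day 4, 0.241 to 97.2 CPM on Day 7, 0 to 45.6 CPM on Day 11 and 0 to 852 CPM on Day 23. On Day 11 its log2 fold change was -4.43 ± 2.10 (SE, edgeR adjusted p = 0.530), the lowest among the members, and the groups overlapped.

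**Figure D3:**
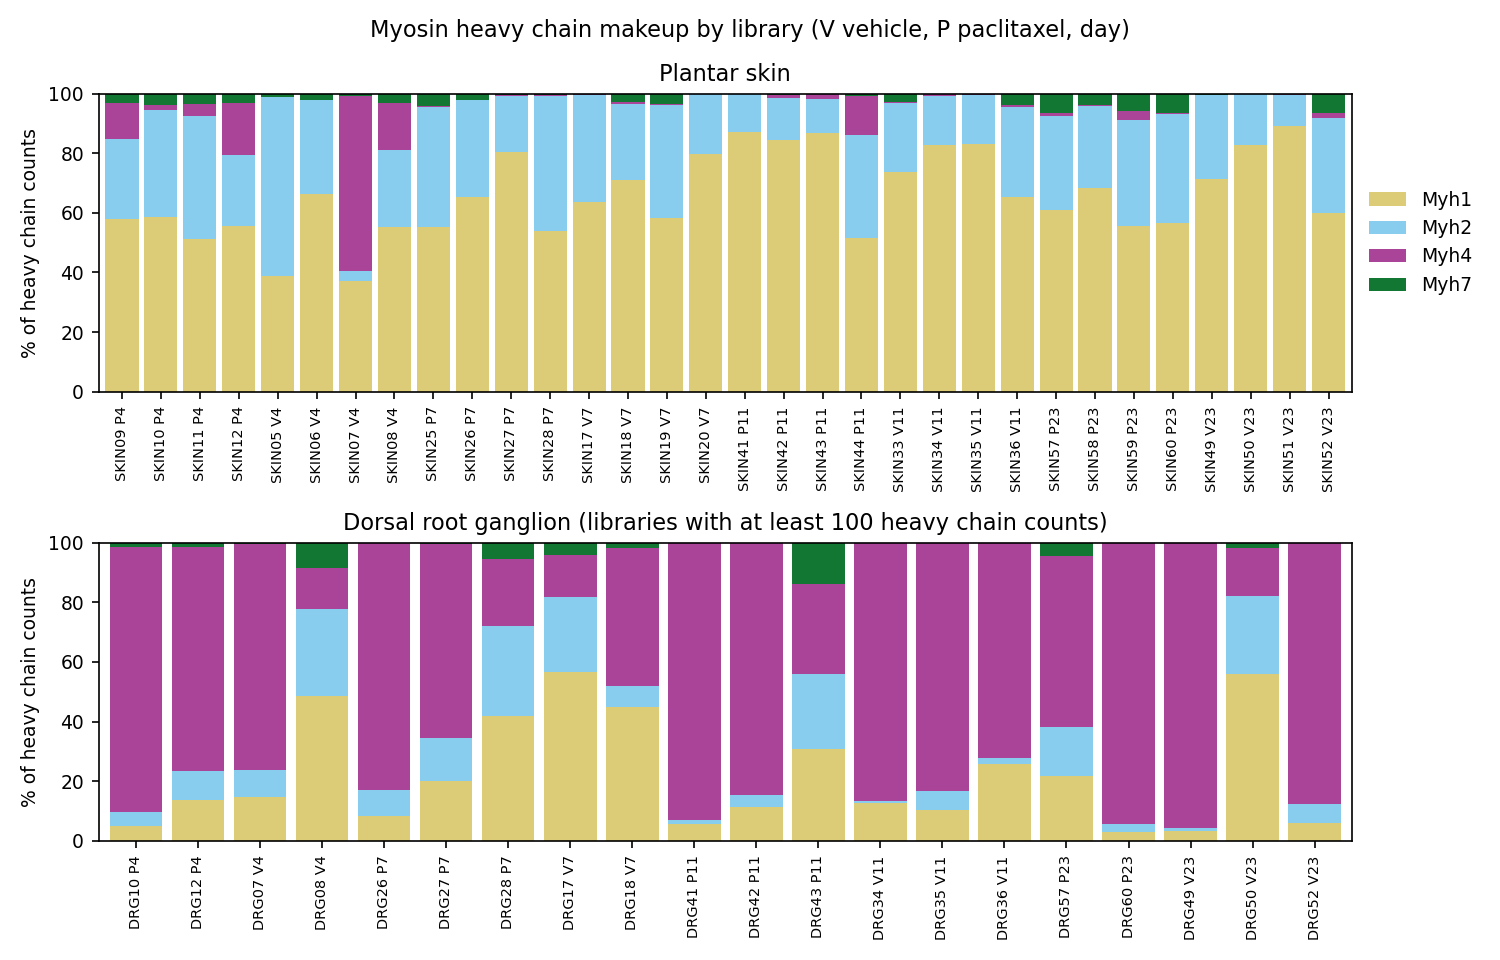
Shares of the 4 myosin heavy chains in the heavy chain counts of each library in skin (top, 32 libraries) and DRG (bottom, the 20 libraries with at least 100 such counts), in percent; P is paclitaxel, V vehicle and the number the day. Myh1 leads in 30 skin libraries and Myh4 in most DRG libraries.

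In DRG the muscle signal sat in a few animals. Acta1 measured 1.09, 11.1, 1.35 and 8.89 CPM in the paclitaxel group and 1.19, 0.753, 14.7 and 3.79 CPM in the vehicle group on Day 4. On Day 7 it measured 0.818, 168, 48.4 and 4.97 CPM in the paclitaxel group, compared with 3.46, 5.39, 4.84 and 1.61 CPM in the vehicle group. High values therefore came from DRG26 and DRG27 on Day 7, and the other libraries of these days were below 15 CPM. On Day 11 it measured 141, 1277, 44.1 and 2.46 CPM in the paclitaxel group, compared with 3.07, 53.4, 97.9 and 5.20 CPM in the vehicle group. On Day 23 it measured 4.41, 2.29, 1.57 and 47.3 CPM in the paclitaxel group, compared with 310, 6.23, 1.98 and 7.28 CPM in the vehicle group. Each group of Days 11 and 23 held libraries below 10 CPM and libraries above 40 CPM, and the groups overlapped on each of the 4 days.

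No member was called between treatments in DRG. On Day 4, 0 of 35 were called (0 by DESeq2; 0% of 18709 genes) and 0 were at an unadjusted p under 0.05 (5.44% of all genes), with a median log2 fold change of -0.00. On Day 7, 0 were called (20 at an unadjusted p under 0.05, 0 by DESeq2; 0.0107% of all genes called and 4.28% unadjusted), with a median of 3.02 and 34 of 35 above zero. Day 11 gave 0 (26 unadjusted, 0 by DESeq2; 0% of all genes called and 13.4% unadjusted), with a median of 3.09. Day 23 gave 0 (0 by DESeq2; 0.0214% of all genes) and 0 at an unadjusted p under 0.05 (4.88% of all genes), with a median of -2.05. The value of Day 7 fell to 1.70 without DRG26, that of Day 11 to 0.59 without DRG42, and that of Day 23 turned to 0.75 without DRG49 and was -3.84 without DRG60. With the mean of the other muscle genes as a covariate, the medians of Days 7, 11 and 23 were 0.01, -0.15 and 0.12. Those genes followed the members in DRG too (median r 0.908), so medians near zero were largely fixed by this model.

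Averaged over the days, 0 members were called in DRG (0 by DESeq2; 0.139% of all genes) and 3 were at an unadjusted p under 0.05 (4.88% of all genes), with a median of 0.98. Across days, 0 were called in paclitaxel mice by edgeR (33 at an unadjusted p under 0.05; 0% of all genes called and 4.46% unadjusted), but 8 by DESeq2, which called 0.187% of all genes, and 23 by edgeR without the filter on low counts, which called 0.189%. By edgeR 10 were called without DRG44, among 33 genes, and 1 without DRG43, among 5. In vehicle mice 0 were called (0 by DESeq2, 0% of all genes), and 15 were at an unadjusted p under 0.05, where 11.4% of all genes were. For the difference of the effect between days 0 were called (0 by DESeq2, 0% of all genes), and 25 were at an unadjusted p under 0.05, where 8.89% of all genes were. On Day 7 Neb, the giant ruler of the thin filament, and Myl2, a slow light chain, were higher in every paclitaxel than in every vehicle library, and on Day 4 Smpx, a small protein of the muscle membrane skeleton, was lower; 4.45% and 3.14% of all genes separated the groups on those days. On Days 11 and 23, 0 members separated them, where 4.05% and 5.02% of all genes did.

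The heavy chains in DRG were split differently from those in skin. Among the 20 DRG libraries with at least 100 heavy chain counts, Myh4 took a median of 75.6%, against 14.2% for Myh1 and 7.87% for Myh2. DRG42, DRG49 and DRG41, with the most muscle, had 84.7%, 95.6% and 92.9% Myh4 and under 0.1% Myh7. Myh1 led in 5 of the 20 libraries, DRG08, DRG17, DRG28, DRG43 and DRG50, with up to 56.8%, and those other than DRG43 held 161 to 353 heavy chain counts. DRG43 had 30.8% Myh1, 25% Myh2, 30.2% Myh4 and 14% Myh7, and held 6.14 CPM of Myh7 where no other DRG library exceeded 1.01 CPM.

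Ratios of a slow to a fast gene put numbers on this difference. Each is the log2 of the counts with 0.5 added, in libraries with at least 20 counts over both genes, and tissues were compared by two-sided permutation tests with 100000 resamples adjusted over 3 ratios. The log2 ratio of Myh7 to Myh4 averaged 0.73 ± 3.21 (SD) in 27 skin libraries and -5.76 ± 3.86 in 26 DRG libraries, a difference of 6.49 (permutation p = 1e-05, the smallest these resamples give; adjusted p = 1.5e-05). That of Tnni1 to Tnni2, the slow and fast troponin I, averaged -2.97 ± 0.93 in skin and -0.57 ± 2.67 in DRG, a difference of -2.40 in the opposite direction (permutation p = 1e-05, adjusted p = 1.5e-05). That of Tnnt1 to Tnnt3, the slow and fast troponin T, averaged -2.33 ± 0.97 and -2.82 ± 2.68 (difference 0.48, permutation p = 0.345).

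The slow troponins in DRG did not follow the amount of muscle. Tnni1 in DRG ran from 0.806 to 3.02 CPM in all 32 libraries, and it measured 2.62 CPM in DRG42, the library with the most muscle, and 1.35 CPM in DRG06, which held 0.00528% muscle counts. Tnni2 measured 284 and 0.0627 CPM in these libraries, which gave log2 ratios of -6.75 in DRG42 and 4.12 in DRG06. Tnnt1 and Tnnc1 behaved like Tnni1, with ranges of 0.278 to 3.89 and 0.224 to 3.0 CPM, and their r with the mean of the other members over the DRG libraries was 0.246 and 0.140, against 0.293 for Tnni1 and 0.986 for Tnni2. In skin, by contrast, Tnni1 reached 242 CPM and had an r of 0.95.

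**Figure D4:**
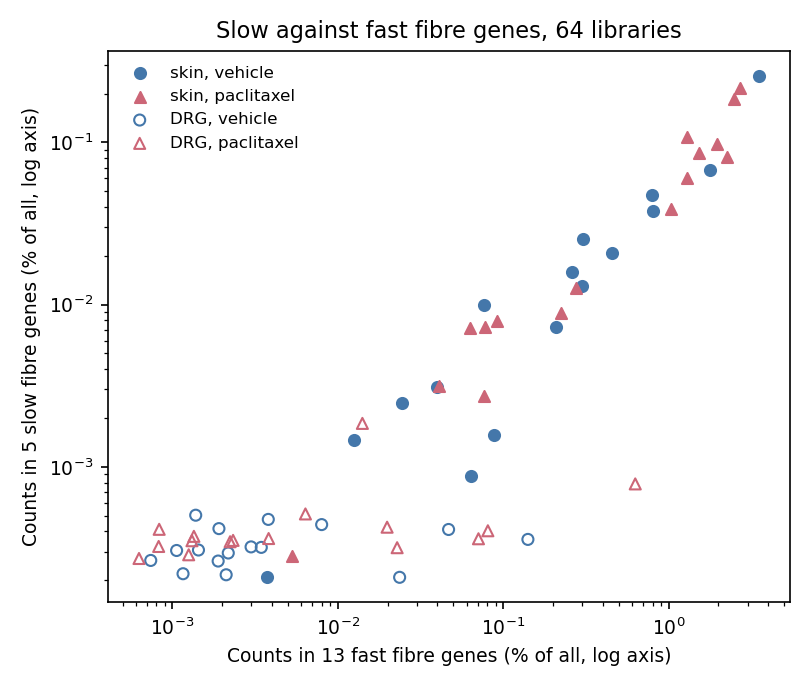
Counts in 5 slow fibre genes against counts in 13 fast fibre genes, each in percent of all gene counts on log axes, for 64 libraries; filled symbols are skin, open symbols DRG, circles vehicle and triangles paclitaxel. In skin both rise together, up to 0.257% and 3.51%, and in DRG the fast genes reach 0.628% while the slow genes stay at or below 0.00185%.

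Some members kept a level of several CPM in every DRG library. Over all DRG libraries the lowest values were 7.12 CPM for Ldb3, a Z-disc adaptor, 6.18 CPM for Eno3, 5.76 CPM for Des and 4.26 CPM for Pygm, the muscle glycogen phosphorylase. By contrast Myh7 was at 0 counts in 9 DRG libraries, Mybpc1 in 8, Myot and Trdn in 7 each, Myoz1 in 5 and Mb in 4. Counts of 0 allow up to 3 counts of the library total. The range of Smpx in DRG was 7.15-fold and that of Ldb3 10.9-fold, where Myh4 varied 10069-fold.

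The slow to fast ratios did not separate the treatments. Averaged over the days, the difference between paclitaxel and vehicle was -1.53 for Myh7 to Myh4 in skin, 0.03 for Tnni1 to Tnni2 and 0.01 for Tnnt1 to Tnnt3 (two-sided permutation within days, p = 0.176, 0.921 and 0.966). In DRG the values were -1.04, -0.25 and -0.08 (permutation p = 0.493, 0.781 and 0.930). After adjustment over the 6 tests every p was 0.966. Differences by day of Myh7 to Myh4 ran from -4.95 to 1.45 in skin and from -4.39 to 2.75 in DRG, so the treatments did not move the ratio the same way on each day.

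Muscle in skin and in DRG was also compared by mouse, with libraries paired by their number. Over 32 mice Acta1 in skin and in DRG, as log2(CPM + 1), had a Pearson r of -0.34 (permutation p = 0.0581) and a Spearman rho of -0.31 (permutation p = 0.0832). Ckm had r = -0.37 (permutation p = 0.0375) and rho = -0.34 (permutation p = 0.0550). Adjusted over the 2 genes, the p-values were 0.0581 for both r and 0.0832 for both rho. Without the 2 mice farthest from the skin median r was -0.32 for Acta1 and -0.33 for Ckm. Within days of 8 mice each, r of Acta1 was -0.08, -0.22, -0.53 and -0.04 on Days 4, 7, 11 and 23, and that of Ckm -0.16, -0.35, -0.48 and -0.13 (exact permutation p of 0.179 or more in each). The relation passed the threshold neither over all mice after adjustment nor within a day. Within treatments of 16 mice each, r of Acta1 was -0.10 in vehicle mice (permutation p = 0.721) and -0.60 in paclitaxel mice (permutation p = 0.0127, unadjusted). The difference between treatments was not tested. These permutations mixed the days, and skin Acta1 of paclitaxel mice was higher on Days 4 and 23 than on Days 7 and 11. The p of the paclitaxel mice therefore cannot separate a relation by mouse from a difference between days. The library with the most muscle came from a different mouse in each tissue. SKIN52, at 8678 CPM of Acta1, had 7.28 CPM in its ganglia, while DRG42, at 1277 CPM, had 130 CPM in its skin.

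**Figure D5:**
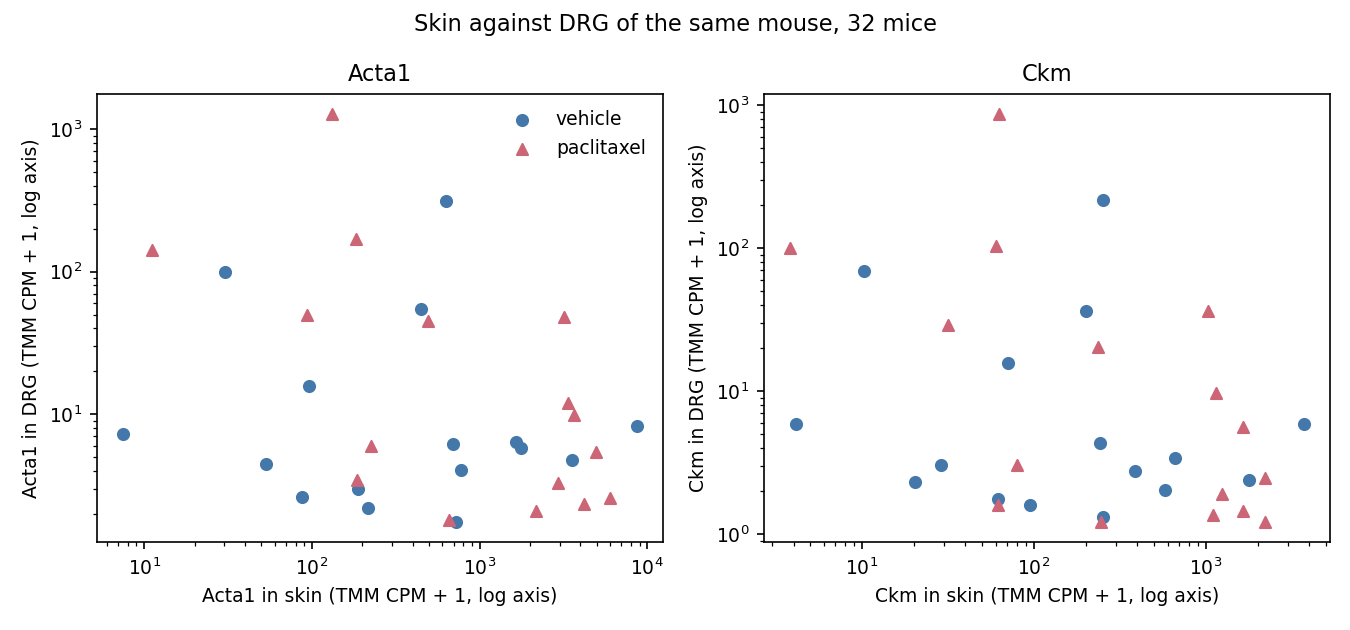
Acta1 (left) and Ckm (right) in skin against DRG of the same mouse (TMM CPM + 1, log axes), 32 mice; circles are vehicle and triangles paclitaxel. The mouse highest in skin (SKIN52) and the mouse highest in DRG (DRG42) differ, and r was -0.34 for Acta1 and -0.37 for Ckm.

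Levels per length in skin differed widely between members. After Acta1 came Tnnc2 (233 CPM per kilobase of exon in the median library), Tnnt3 (188), Atp2a1 (185), the calcium pump of fast fibres, and Mb (182). The lowest were Mybpc2 (0.766) and Myh4 (0.903). Tnnc2 is uncertain, since 74.0% of its exon bases overlap exons of Ube2c on the other strand, and whether counting used the strand is not given in the sources used here. The same holds to a smaller degree for Mb (27.6%), Atp2a1 (21.9%), Ckm (15.5%) and Myh1 (8.11%).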

How the data were processed

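RNA of plantar skin and DRG was sequenced as single-end reads. The labels give oligo-dT and the study's methods ribosomal RNA depletion for the libraries. Reads were trimmed (Trimmomatic 0.38) and counted per gene with STAR on GRCm38, and the authors deposited raw counts, used here as whole reads per gene without normalisation. The normalised tables were not used, and 28 empty columns of no sample in each table were left out, as were 118 rows without a gene name (0.0132% of counts in DRG, 0.0286% in skin).

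Counts were fitted per tissue with edgeR 4.0.16 in R 4.3.3 (TMM, filterByExpr, quasi-likelihood test, 8 groups together), adjusted by Benjamini-Hochberg over all genes tested at 0.05. Median folds and counts describe the members. Ratios and correlations were tested by permutation with NumPy 2.4.6, using all pairings where fewer than 10 mice were compared. Alternatives were DESeq2 1.42.0, other scaling, no filter, single days, a muscle covariate and leaving out each mouse. Scripts were tested on simulated data. Intervals for single shares were not computed because replicates were available.

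Members and marker lists were chosen with earlier results of these data known. Named genes were Acta1, Ckm, Myh4, Myh7, the slow and fast pairs, members called, list genes past the threshold, and the 15 most and 10 least alike genes outside the list in skin, of which 1 is not reported here. Myh3, Myog and the genes named with DRG levels were added after their values were seen. The same number in both tissues was taken to mark the same animal, as treatment and day matched too. The labels used here do not state it. The deviations of the members from their group means correlated between skin and DRG with r over 0.1 in 10 of 32 mice (-0.64 to 0.522, median -0.04).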

Additional observations from a re-analysis of the deposited data

Results flagged for a closer look

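Libraries that stood far from the other 3 of their group were found in 13 of 120 groups and measures examined, where chance gives about 1 in 20. In skin, SKIN35 (vehicle, Day 11) was low in Acta1 (log2(CPM + 1) of 4.91, others 8.81 to 9.60) and Myh4 (0.234, others 2.64 to 3.02) and had a log2 ratio of Tnnt1 to Tnnt3 of -0.918 (others -2.57 to -2.39). SKIN52 (vehicle, Day 23) had a log2(CPM + 1) of Myh4 of 8, against 0 to 0.975 in the others. The log2 ratio of Tnnt1 to Tnnt3 was -3.57 in SKIN25 (paclitaxel, Day 7; others -1.21 to -0.764), and that of Tnni1 to Tnni2 was -3.17 in SKIN58 (paclitaxel, Day 23; others -2.58 to -2.48).

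In DRG, the log2 muscle share of DRG60 (paclitaxel, Day 23) was -4.58, against -7.32 to -6.91. DRG07 (vehicle, Day 4) had a log2(CPM + 1) of Myh4 of 3.94, against 0.286 to 0.624, and DRG50 (vehicle, Day 23) one of Myh7 of 0.186, against 0. DRG09 (paclitaxel, Day 4), whose run labels disagree, had a log2 ratio of Tnni1 to Tnni2 of 3.76, against -0.232 to 0.381. DRG49 (vehicle, Day 23) had log2 ratios of -5.59 for Tnni1 to Tnni2 (others -0.75 to -0.381) and -8.53 for Tnnt1 to Tnnt3 (others -2.55 to -1.75). DRG33 (vehicle, Day 11) had a log2 ratio of Myh7 to Myh4 of -1.34, against -8.98 to -7.71.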

How the results depend on the processing

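With the other muscle genes, which follow the members, as a covariate, the members called in skin were 1 for the mean over days, 1 across days in vehicle mice and 0 across days in paclitaxel mice. Across days of the paclitaxel mice in DRG, 23 members were called without the filter and 8 by DESeq2. Leaving out each mouse in turn gave 0 to 16 members called on Day 23 in skin, 0 to 2 for the difference between days, 0 to 1 across days in vehicle mice, 6 to 35 across days in paclitaxel mice, and 0 to 10 for the latter in DRG. In the same way r by mouse ran from -0.39 to -0.26 for Acta1 and -0.41 to -0.30 for Ckm. The treatment differences of log2 ratios changed sign, from -0.11 to 0.19 (Tnni1 to Tnni2) and -0.15 to 0.17 (Tnnt1 to Tnnt3) in skin and from -0.60 to 0.069 and -0.48 to 0.31 in DRG. With the replicate block, the tissue differences were 5.99 (Myh7 to Myh4, adjusted permutation p = 0.000135), -2.40 (Tnni1 to Tnni2, 0.000135) and 0.48 (Tnnt1 to Tnnt3, 0.358), and no call changed. Without the minimum of 20 counts the treatment difference of Myh7 to Myh4 was -0.56 in skin and -0.65 in DRG. The cause of these changes was not tested. With 4 mice per group and muscle shares spanning orders of magnitude, folds of a single day have standard errors above 1 on the log2 scale for Acta1 in skin, and low counts limit the ratios in DRG.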
